A study of Mus musculus with 59 samples.

Results

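The cells studied here were melan-a melanocytes given agouti signaling protein for 4 days, compared with untreated melan-a cells. Melan-a is an immortal line of pigmented mouse melanocytes, labelled as strain C57BL6. The comparison rests on the 6 arrays whose second channel held RNA of cells treated with ASP for 4 days, of 59 arrays in all, chosen by the labels alone. Recombinant murine ASP was given at 10 nM at 37 C, and the first channel of each array held RNA of untreated melanocytes. On 3 arrays the treated RNA carried Cy5 and on the other 3 it carried Cy3. The design text gives 3 biological replicates, each hybridised in both dye orientations. The labels do not say which array belongs with which, so arrays were paired by their repeat numbers (1 with 4, 2 with 5, 3 with 6), and the other groups likewise by assumption. ASP at 2 days had 5 arrays, so its replicate 3 was a single array with treated RNA in Cy3. In α-MSH at 4 days, array 1 was paired with 4, 3 with 5 and 2 with 6. Other groups used for comparison were ASP at 3 h and at 1, 2 and 3 days, and α-MSH at 100 nM for 4 days, each against untreated cells of the same line.

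ASP is a secreted protein of the skin that binds the melanocortin 1 receptor of melanocytes and blocks its activation by α-melanocyte stimulating hormone (α-MSH). The activated receptor raises cyclic AMP and favours dark eumelanin, while ASP lowers the signal and favours yellow to red pheomelanin, as in the yellow band of agouti hair. Sustained exposure of cultured melanocytes to ASP is known for a loss of pigment. The value table names probes by number only, and no table used here pairs these numbers with genes. Pigment genes, markers of melanocytes and markers of other cell types could therefore not be examined, and changes are described by probe.

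The values were log ratios, read on the log2 scale. Their direction was likely treated over untreated, since the series' design writes the samples in that order. The files do not state it, so "higher" and "lower" rest on this reading throughout. Each array was centred on its median before any comparison. The p-values rest on a spread pooled over the 30 replicates of all 10 drug and time groups, not on the 3 replicates of a group alone. Nothing says how replicates were cultured, so this spread may be technical.

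The 6 arrays were not alike in coverage or dye bias. As deposited, the array medians were -0.639 on array 1 and 0.445 on array 4, which form replicate 1, and lay between -0.059 and 0.052 on the other 4. Arrays 1 and 4 had 35740 and 35101 probes with a value, against 24334 to 33073 on the others. A separate block of 60 probe numbers held 22 to 38 values on each of the 4 arrays of replicates 2 and 3 and 0 on the 2 arrays of replicate 1. The arrays of replicate 1 thus differed in their probe set from the rest, and results without replicate 1 are given beside the counts. All 6 arrays measured 22004 probes, and 699 of the listed 38591 probes had a value on none of them. Over the 22004, replicate means correlated across probes at 0.54 for replicates 1 and 2, 0.45 for 1 and 3 and 0.54 for 2 and 3. Probes are not independent replicates, and these values only describe how alike the profiles were.

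After 4 days of ASP, transcripts of many probes differed from untreated cells, more of them higher than lower. Of 34156 probes tested, 1845 passed a Benjamini-Hochberg adjusted p of 0.05 in limma, which is 5.40% of those tested. Of these, 1252 were higher in treated cells (3.67% of those tested) and 593 were lower (1.74%). The median change was 1.84-fold among the higher probes, with a middle range from 0.69 to 1.29 on the log2 scale. Among the lower probes it was 1.76-fold, with a middle range from -1.25 to -0.63. Over all tested probes the median log2 ratio was 0.02, with a middle range from -0.19 to 0.26. A change of 2-fold or more together with the adjusted p was found in 725 probes (2.12%), 501 higher and 224 lower. This count was 1122 with arrays scaled to the same spread, 430 with the spread of the ASP replicates only and 0 with that of this group only. It was 274 on the Cy5 arrays alone, 367 among probes with values on all 59 arrays and 414 among those with 6 values. Changes of 4-fold or more were rarer, with 68 probes higher and 20 lower.

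**Figure D1:**
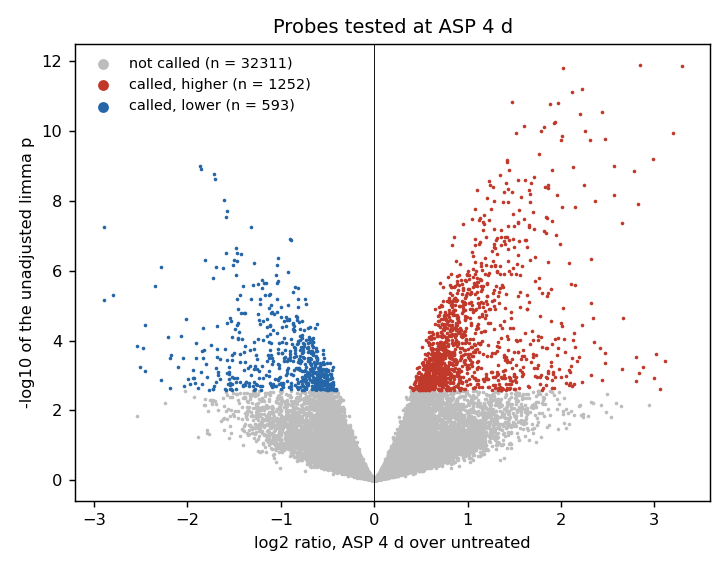
Each point is a probe tested at ASP 4 d, with its log2 ratio of treated over untreated cells on the x axis and the -log10 of its unadjusted limma p on the y axis. The 1252 higher probes (red) outnumber the 593 lower probes (blue), and the higher probes reach further out.

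The number of calls depended on how the spread was estimated. The pooled spread gave the 1845 calls, with 916 left when the 15 ASP replicates alone were used, and 0 left when the 3 replicates of this group alone were used in limma, where 4564 probes had an unadjusted p under 0.05. Without replicate 1, 2 or 3 the calls were 1172 of 26939, 782 of 33656 or 1154 of 27179 probes tested. More probes were higher than lower in each case, and without replicate 2 the probes past 2-fold were 457. With the dye bias of each array removed by loess the calls were 1573 higher and 1146 lower, so the share of higher probes was 57.9% in place of 67.9%.

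A large fold alone did not make a call. Another 1064 probes differed by 2-fold or more without passing the threshold, 28 of them by 4-fold or more. Calls also depended on how many arrays had measured a probe. Of the 22004 probes measured on all 6 arrays, 1443 were called (6.56%), with a median absolute log2 ratio of 0.78. Of the 12152 tested probes measured on fewer than 6 arrays, 402 were called (3.31%), with a median absolute log2 ratio of 1.44. The standard error of a probe's log2 ratio had a median of 0.18 with 6 values and of 0.39 with fewer, so a sparsely measured probe needed a larger change to pass. Probes with only 2 values were called at 6.13%, above the 2.34% of probes with 3 values, although their median standard error was 0.51.

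Fitted on the arrays with treated RNA in Cy3, limma called 1254 of 28622 probes tested, of which 934 were among the 1845. On the Cy5 arrays it called 298 of 32484, of which 290 were among the 1845. The dye effect per probe had been removed beforehand over arrays of both orientations. Neither fit was therefore independent of the other orientation. The following values come from the arrays that made the calls and are a description. Among the 1443 called probes with 6 values, 1416 had the direction of the call in the mean of the 3 arrays with treated RNA in Cy5 and also in the mean of the 3 Cy3 arrays (98.1%). Over all 22004 probes with 6 values, both means had the same sign in 45.1%. On every single array the called direction was kept by 1019 of the 1443 (70.6%), against 8.28% of the 22004 that had the same sign on all 6 arrays. For the 1015 higher probes the Cy5 arrays gave a median of 0.94 and the Cy3 arrays 0.75. For the 428 lower probes they gave -0.65 and -0.90.

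**Figure D2:**
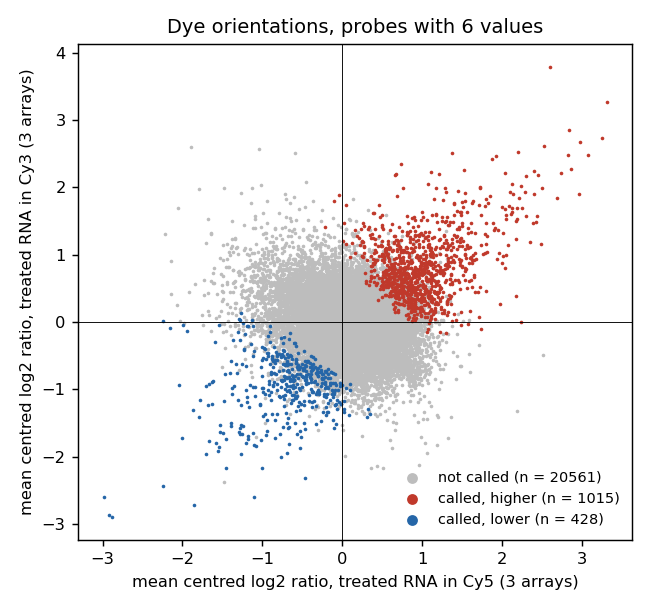
Each point is a probe with 6 values, with its mean centred log2 ratio over the 3 arrays that had treated RNA in Cy5 on the x axis and over the 3 Cy3 arrays on the y axis. Called probes (red higher, blue lower) lie almost all where both means have the same sign, while the probes not called (grey) spread over all quadrants.

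The dye orientations differed most in replicate 1. The higher probes had a median of 1.31 on array 1 and of 0.49 on array 4, its partner in the other dye. The lower probes had -0.35 on array 1 and -1.04 on array 4. On arrays 2, 5, 3 and 6 the higher probes stood at 0.83, 0.93, 0.72 and 0.85. The lower probes stood there at -0.84, -0.85, -0.68 and -0.85. The gap between orientations was thus smaller in replicates 2 and 3. The probes were called from these same arrays, which favours medians on the same side of 0. With the orientations averaged, the replicate medians of the called probes lay close together. The median of all 1252 higher probes was 0.87, 0.88 and 0.83 in replicates 1, 2 and 3, and that of all 593 lower probes was -0.72, -0.87 and -0.79.

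**Figure D3:**
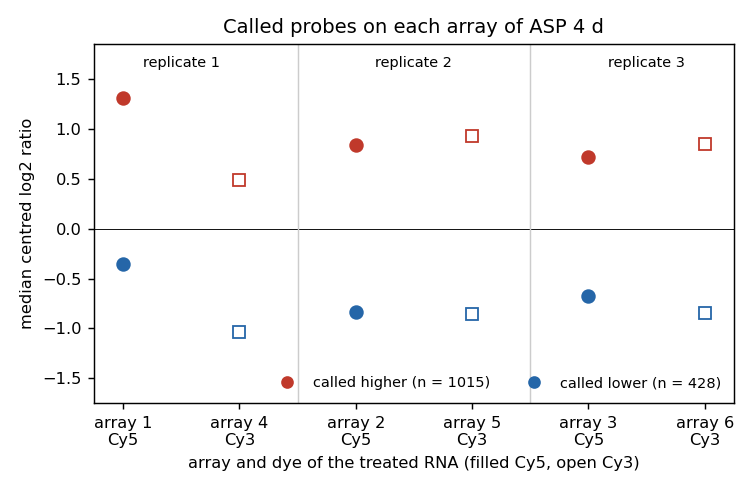
The y axis gives the median centred log2 ratio of the 1015 higher (red) and 428 lower (blue) probes with 6 values on each of the 6 arrays, ordered by assumed replicate, with filled circles for treated RNA in Cy5 and open squares for Cy3. The medians keep their side of 0 on every array, which the choice of the probes on these arrays favours. Arrays 1 and 4 differ the most within a replicate.

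By the naming rule, the 2 probes with the largest rise and the 2 with the deepest fall among called probes with the same sign on all of their 5 or 6 measured arrays are given by number. There were 1067 such probes, 777 higher and 290 lower. Probe 1795055_1 rose the most. Its centred log2 ratios were 2.69, 4.92 and 2.33 on arrays 1, 2 and 3 (treated RNA in Cy5) and 3.30, 2.84 and 3.67 on arrays 4, 5 and 6 (treated RNA in Cy3). All 6 arrays showed the rise, and array 2 was the highest. The mean was 3.29 ± 0.51 (SD, n = 3), a 9.79-fold rise (limma adjusted p = 1.8e-08). Probe 1794161_1 had 2.84, 3.42 and 1.53 on arrays 1 to 3 and 3.16, 4.50 and 3.73 on arrays 4 to 6. Array 3 was the lowest and still stood clearly above 0. The mean was 3.20 ± 0.69 (SD, n = 3), a 9.18-fold rise (limma adjusted p = 2.2e-07).

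Probe 1775850_1 fell the deepest, with -2.16, -3.32 and -3.18 on arrays 1 to 3 and -3.21, -2.49 and -3.01 on arrays 4 to 6. The arrays lay close together, with no gap between the dye orientations. The mean was -2.89 ± 0.21 (SD, n = 3), a 7.44-fold fall (limma adjusted p = 2e-05). Probe 1795447_1 had -2.34, -2.80 and -3.60 on arrays 1 to 3 and -2.96, -2.87 and -2.78 on arrays 4 to 6. It too was below 0 on all 6 arrays, with the lowest value on array 3. The mean was -2.89 ± 0.28 (SD, n = 3), a 7.42-fold fall (limma adjusted p = 0.00079). Each of these 4 calls held without any 1 of the replicates and in the fit on the arrays of either dye orientation. Those fits used values with the dye effect removed over both orientations. With the spread estimated from this group's 3 replicates alone, the adjusted p of each was 0.2.

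The same 4 probes were then read at the earlier times. They were picked for their large ratios at 4 days, which favours large differences from the other times. Probe 1795055_1 stood at -0.25 ± 0.43 (SD, n = 3) at 3 h, 0.79 ± 0.78 at 1 day, 1.14 ± 0.10 at 2 days and 3.24 ± 0.56 at 3 days. Its level at 4 days was above that at 2 days by 2.16 (SE 0.34, limma adjusted p = 0.015), and above that at 1 day by 2.50 (adjusted p = 0.0011). From 3 to 4 days the difference was 0.06 (SE 0.34). The call against 2 days was lost with ASP replicates only, on the arrays of either dye orientation alone and without replicate 2 at 2 days. With only the groups compared in the fit, limma called 0 probes between ASP times, so no call between times in this paragraph held there. Probe 1775850_1 had 0.15 ± 0.25 at 3 h, -0.88 ± 0.36 at 1 day, -2.52 ± 0.38 at 2 days and -2.84 ± 0.15 at 3 days. At 4 days it lay below 2 days by only -0.38 (SE 0.52, limma adjusted p = 0.99). Below 1 day it lay by -2.02 (SE 0.52), which did not pass (adjusted p = 0.16). Probe 1794161_1 differed from 3 h by 3.05 and from 1 day by 2.50 (limma adjusted p = 0.00027 and 0.0073), and its difference of 0.93 from 2 days did not pass (adjusted p = 0.64). Probe 1795447_1 differed from 3 h by -3.10 (limma adjusted p = 0.021), and its -1.92 from 1 day did not pass (adjusted p = 0.4). At 3 days probes 1794161_1 and 1795447_1 stood at 3.76 ± 0.20 and -3.19 ± 0.29, farther from 0 than at 4 days. Their differences of 4 from 3 days were -0.56 (SE 0.41) and 0.30 (SE 0.71), and neither passed.

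**Figure D4:**
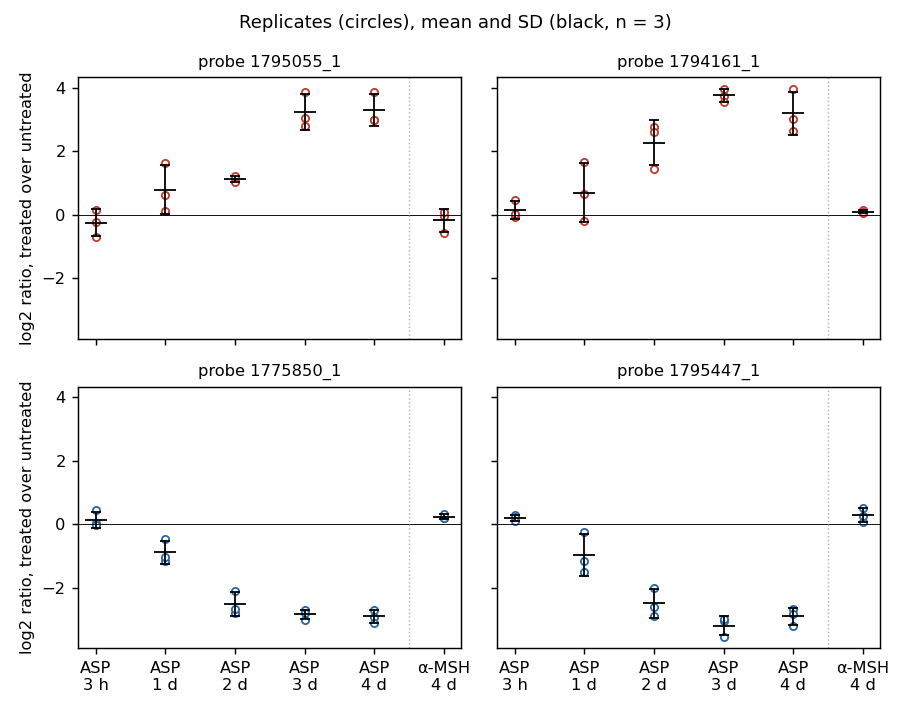
The y axis gives the log2 ratio of treated over untreated cells for the 2 probes with the largest rise (red) and the 2 with the deepest fall (blue) at ASP 4 d, in each ASP time and in α-MSH at 4 d. Open circles are the 3 replicates, and black bars the mean and SD. All 4 probes lie near 0 at ASP 3 h and with α-MSH, and far from 0 at ASP 3 d and 4 d.

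The probes called at 4 days were then followed through the earlier times. These were chosen on the arrays of 4 days, and no label says if untreated RNA was common to the times, so the levels are set side by side with no test of their likeness. The median of the probes higher at 4 days was 0.07 ± 0.08 (SD over replicate medians, n = 3) at 3 h, 0.41 ± 0.23 at 1 day, 0.49 ± 0.12 at 2 days, 0.76 ± 0.02 at 3 days and 0.86 ± 0.03 at 4 days. The median of the probes lower at 4 days was 0.04 ± 0.06 at 3 h, -0.26 ± 0.19 at 1 day, -0.44 ± 0.04 at 2 days, -0.66 ± 0.03 at 3 days and -0.80 ± 0.08 at 4 days. Each replicate median is over the probes measured in it, so the set was not the same at each time. At 3 days 1122 of the 1252 higher and 496 of the 593 lower probes had values in at least 2 replicates. At 3 h both sets lay near 0, and their replicate medians overlapped. Replicate 1 at 1 day stood apart, with 0.67 for the higher probes against 0.26 and 0.29 in the others, and -0.04 for the lower probes against -0.34 and -0.39. It includes array 1 of that time, whose median was -1.435 as deposited. The median absolute deviation of that array was 1.461, against 0.328 to 0.435 on the other arrays of 1 day. The median over all probes lay between -0.004 and 0.024 at each of these times.

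**Figure D5:**
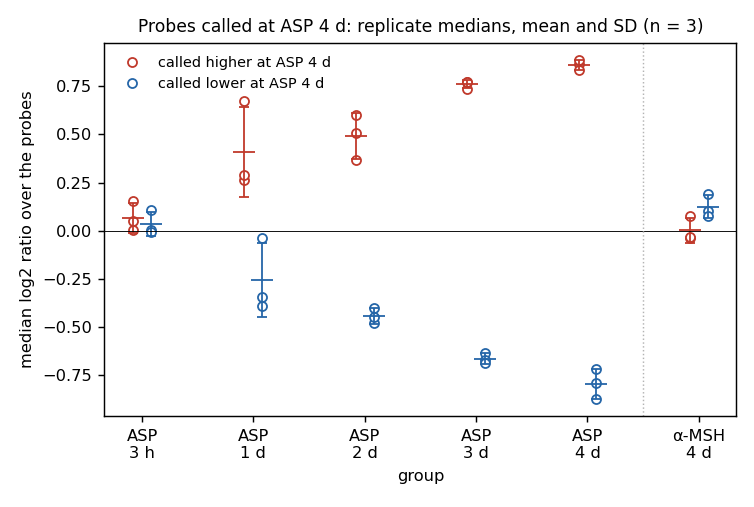
The y axis gives the median log2 ratio of treated over untreated cells over the probes called higher (red) or lower (blue) at ASP 4 d, in each replicate (open circles) with the mean and SD, by ASP time and for α-MSH at 4 d. Both sets start near 0 at 3 h, part at 1 d and lie farthest apart at 4 d, where they were chosen. Each median is over the probes of the set measured in that replicate.

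Tested probe by probe, few probes differed between 4 and 3 days. Of 27699 probes, 34 differed in limma (0.123%), 11 higher and 23 lower at 4 days. These 34 were sparsely measured: 0 of them had a value on all 12 arrays of both times, while 70.2% of the probes tested did. Among the 19449 probes with all 12 values limma called 0, with 595 at an unadjusted p under 0.05. The 11 had medians of 0.60 at 4 days and -2.26 at 3 days, and the 23 had -0.72 and 1.67. Probes chosen for their difference favour such opposite medians. The count was 15 without replicate 3 at 4 days and 13 without replicate 2 at 3 days. With arrays scaled to the same spread 217 probes differed, 105 higher and 112 lower, and after loess 18 were higher and 23 lower. More were higher than lower with a covariate for the separate block of probe numbers (30 and 17), on the Cy3 arrays alone (6 and 5) and where each array counted as its own replicate (5 and 3). The standard error of a difference had a median of 0.27, and the smallest difference called was 1.31 on the log2 scale.

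Against 2 days, 11 of 31990 probes differed (0.0344%), 9 higher and 2 lower at 4 days, of which 2 had a value on all 11 arrays. This count was 2 and 4 without replicates 2 and 3 at 4 days and 0 and 5 without replicates 2 and 3 at 2 days. Those 5 were 1 higher and 4 lower, against 9 and 2 with that replicate, which was the single array. At 0 calls, limma had 2144 probes at an unadjusted p under 0.05. After loess 2 were higher and 2 lower, and without centring 6 were higher and 0 lower. Against 1 day, 40 of 34129 probes differed (0.117%), 34 higher and 6 lower at 4 days. Of these 40, 31 had a value on all 12 arrays. The 34 stood at a median of 1.83 at 4 days and 0.16 at 1 day, and the 6 at -1.53 and 0.27. The choice of probes by their difference favours medians far apart. Without replicate 2 at 4 days 16 probes differed. Without replicate 1 at 1 day 35 differed, of which 23 were among the 40.

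Most differences in time were found against 3 h. Of 34137 probes, 771 differed (2.26%), 569 higher and 202 lower at 4 days, and 667 of the 771 had a value on all 12 arrays. The 569 stood at a median of 0.93 at 4 days and -0.28 at 3 h. The 202 stood at -0.87 and 0.30. These probes were chosen for a difference between the times, which favours medians on opposite sides of 0. The count was 463 and 302 without replicates 1 and 2 at 4 days and 456 and 216 without replicates 2 and 3 at 3 h. The separate block of probe numbers had 0 values on arrays 1, 2, 4 and 6 at 3 h, and on arrays 1 and 4 at 4 days. Time and probe set thus cannot be fully told apart here. With a covariate for the block 1109 probes differed, 916 higher and 193 lower, and 685 of them were among the 771.

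The last comparison set ASP against α-MSH, the activating ligand of the same receptor, at the matched time of 4 days. The probes higher with ASP had a median log2 ratio of 0.00 ± 0.07 (SD over replicate medians, n = 3) with α-MSH, and those lower with ASP had 0.12 ± 0.06. The replicate medians of the lower probes were 0.10, 0.19 and 0.08, all above 0, while those of the higher probes fell on both sides of it. The median over all probes with α-MSH at 4 days was 0.02. Both sets were chosen on the ASP arrays of 4 days. The 4 named probes lay near 0 with α-MSH. Probe 1795055_1 stood at -0.17 ± 0.36 (SD, n = 3), 1794161_1 at 0.11 ± 0.04, 1775850_1 at 0.25 ± 0.08 and 1795447_1 at 0.29 ± 0.22.

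Tested directly, 860 of 34123 probes differed between the drugs at 4 days in limma (2.52%), 517 higher and 343 lower with ASP, and 792 of the 860 had a value on all 12 arrays. The 517 stood at a median of 1.08 with ASP and -0.23 with α-MSH, and the 343 at -0.68 and 0.41. These probes were chosen for a difference between the drugs, which favours medians on opposite sides of 0. All 4 named probes were among the 860, with differences of 3.47, 3.09, -3.14 and -3.18 for 1795055_1, 1794161_1, 1775850_1 and 1795447_1 (limma adjusted p between 1.9e-06 and 0.013). These 4 were picked for their large ratios with ASP at 4 days, which favours large differences here. The count of probes that differed was 428 without ASP replicate 2 and 476 and 424 without α-MSH replicates 1 and 2. The separate block of probe numbers had values on 20 of 29 ASP arrays and on 0 of 30 α-MSH arrays, and the doses differed, so the drug cannot be told apart from the series of arrays and the dose.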

How the data were processed

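Arrays with a treated and an untreated channel of melan-a RNA were analysed, with 6 arrays of ASP at 4 days among 59. The deposited values are log ratios taken as log2; a largest size of 10.258 makes base 10 unlikely, and for the base, numerator, scanner, normalization and spot filter the entry is "not given in the sources used here". The RNA came from a column kit and was dye-labelled by an indirect method, per the labels' protocols.

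Array medians were set to 0. A dye effect per probe, estimated separately for ASP and α-MSH arrays, was subtracted, and assumed pairs of 2 arrays were averaged (replicate 3 of ASP 2 d was 1 array). A single limma fit (version 3.58.1, lmFit and eBayes, R 4.3.3) took all 30 replicates. Probes needed a value in at least 2 of 3 replicates of each group compared, also from a single array of a pair. Benjamini-Hochberg adjustment ran over all probes tested, with calls at 0.05. The number of arrays limits the precision. Scripts were tested on simulated data. The comparison, lists and alternatives were chosen with earlier results of these data known. Probes named are the 2 highest and 2 lowest called ones with the same sign on all of at least 5 measured arrays. Alternatives changed scaling, dye, pairing, spread and replicates. Fits on the arrays of a single dye orientation used values with the dye effect already removed over both orientations. Fixed gene lists could not be used without gene names. Replicate numbers were not taken to pair samples across ASP times, as no label states such a pairing.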

Additional observations from a re-analysis of the deposited data

Results flagged for a closer look

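Responses differed between groups by limma's test of the difference. ASP at 4 days differed from ASP at 3 days in 34 probes (0.123% of those tested) and from ASP at 2 days in 11 (0.0344%). It differed from ASP at 1 day in 40 probes (0.117%) and from ASP at 3 h in 771 (2.26%). From α-MSH at 4 days it differed in 860 probes (2.52%). Of the 34 probes, 0 had a value on all 12 arrays of both times. In fits of only the groups compared, limma called 0 probes between ASP times, with the unadjusted counts given below. Of 7 measures taken over the 6 arrays (the median in Cy5 over Cy3 orientation, the number of values, the spread and the 4 named probes), 0 had a single array far from the others by Dixon's criterion, which flags about 1 in 20 by chance. This criterion cannot see a pair of arrays that stand apart together, as arrays 1 and 4 did with Cy5 over Cy3 medians of -0.639 and -0.445 against -0.059 to 0.052 on the others, so the count of 0 says nothing of them.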

How the results depend on the processing

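Counts of probes are given in the order of the comparison with ASP 3 d, 2 d, 1 d, 3 h and α-MSH 4 d where several are listed. The 1845 calls at ASP 4 d became 2996 with arrays scaled to the same spread, 298 with treated RNA in Cy5 only, 916 with ASP replicates only and 0 with this group only, and lay between 782 and 1172 with 1 replicate left out. Loess, no centring, Cy3 only, complete probes, other pairs, robust eBayes, single arrays and the covariate stayed within 1.5 times of it. With only the groups compared in the fit, the differences were 0, 0, 0, 0 and 252 in limma, with 1698, 1359, 1338 and 4236 probes at an unadjusted p under 0.05 behind the counts of 0; with ASP replicates only they were 2, 0 (1318 at an unadjusted p under 0.05), 7 and 261. Arrays with treated RNA in Cy5 gave 1, 1, 4, 83 and 141, and those in Cy3 gave 11, 0 (2873 at an unadjusted p under 0.05), 7, 1329 and 485. Scaled arrays gave 217, 80, 62 and, for α-MSH, 1311. Loess gave 4 against 2 d, 91 against 1 d, 1497 against 3 h and 1354 against α-MSH. Without centring they were 6 against 2 d, 77 against 1 d and 1349 against 3 h. Probes with values on all 59 arrays gave 0 against 3 d (562 at an unadjusted p under 0.05), 4 against 2 d and 1324 against 3 h, and those with values on all arrays compared gave 0, 2 and 1235. Pairs 1-5, 2-6 and 3-4 gave 60 against 3 d. Pairs 1-6, 2-4 and 3-5 gave 59 against 3 d and 17 against 2 d. Single arrays taken as independent gave 8, 5 and 75 against 3 d, 2 d and 1 d. With the pair as a random block, whose estimated correlation was -0.097, they gave 17 against 3 d, 129 against 1 d, 1307 against 3 h and 1335 against α-MSH. A covariate for the separate block of probe numbers, added after seeing the data, gave 47 against 3 d (30 higher, 17 lower), 152 against 2 d and 89 against 1 d. With 1 replicate left out, those of the other group added after seeing the data, the ranges were 13 to 39, 0 to 16, 16 to 42, 216 to 941 and 424 to 682. The replicate block gave 1708 calls at ASP 4 d and 33, 19, 36, 767 and 749 differences. Same-numbered replicates of ASP 4 d and the other ASP times deviated together with correlations between -0.069 and 0.135. The highest correlation with another number lay between -0.061 and 0.135. No label states a pairing by number, and the main fit used none. The 4 named probes kept their direction throughout, and lost the call only with this group's spread alone. The cause of these differences was not tested. Fixed gene lists were not run because probes had no gene names.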

Other observations

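After removal of the dye effect, the arrays of the assumed pairs of ASP 4 d correlated across the 22004 probes with 6 values at 0.195 (1 and 4), -0.012 (2 and 5) and 0.275 (3 and 6). The highest correlations were those of arrays 5 and 6 at 0.551, 2 and 4 at 0.522, 1 and 6 at 0.468 and 1 and 5 at 0.439, none of them an assumed pair. These were picked from all 15 pairs of arrays after their values were seen. In centred values without this removal, arrays of the same dye orientation correlated at a median of 0.35 and those of opposite orientation at 0.07.

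Coverage hid part of the profile: 1994 probes had a value on both arrays of replicate 1 and on no other array of ASP 4 d, and could not be tested.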
